A study of Mus musculus with 36 samples.

Results

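The microglial pulldown of old, late-induced Cx3cr1-NuTRAP mice was compared, gene by gene, with the whole-tissue RNA of the same animals. The members were the 14 libraries whose titles give old age and late induction, out of 36 libraries in the series. They are 7 pulldowns and 7 inputs of hippocampus (both hemispheres), paired by the animal number that begins each library name. All 7 animals were 22 months old, 5 female and 2 male, and all carried the Cx3cr1-NuTRAP genotype, so no library of an animal without the reporter entered the comparison. A single homogenate per animal was cleared by centrifugation, part of it was kept as input, and the rest was incubated with an antibody against GFP and magnetic beads. For a readout by age that shares no library with these 14, the inputs of 12 old (22 months; 7 female, 5 male) and 10 young (6 months; 5 female, 5 male) mice of the same genotype with early induction were used. The age at which cre was induced is given only as early or late.

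In translating ribosome affinity purification (TRAP), a cre recombinase switches on a GFP-tagged ribosomal protein in chosen cells, and mRNA attached to the tagged ribosomes is pulled down from the whole-tissue lysate. Here cre is controlled by Cx3cr1, the fractalkine receptor gene. Microglia are the resident macrophages of the brain parenchyma and express it strongly, but border macrophages of the meninges, vessels and choroid plexus, and some blood leukocytes, express it too. The pulldown is therefore a model of Cx3cr1-expressing cells rather than of microglia alone. Microglia sense nucleotides, complement, Fc ligands and lipids, signal through ITAM adaptors, take up debris and digest it in lysosomes.

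The 14 libraries were similar in depth, at 12.999 M to 20.449 M estimated counts, and 16629 to 17152 genes had a count in each. Between 2.74% and 4.55% of a library came from its top 10 genes, and 0 libraries went against their sex label. Each pulldown resembled the input of its own animal more than that of any other animal, once group means were removed. Levels are given in CPM, counts scaled to the effective library size. Fold changes are TRAP minus input on the log2 scale, from edgeR's quasi-likelihood test with the animal as a block, with Benjamini-Hochberg adjusted p over all genes tested and a call at an adjusted p under 0.05.

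The label was checked against its 4 markers first. Cx3cr1 itself ran from 31.6 to 43.8 CPM (median 41.2) in the inputs and from 563 to 877 CPM (median 610.2) in TRAP. P2ry12, the ADP receptor that guides microglial processes, ran from 22.5 to 27.3 CPM (median 24.4) in input and from 388 to 498 CPM (median 412) in TRAP. The 2 groups of libraries did not overlap for either gene. Tmem119, a microglial membrane protein, rose from a median of 40.3 to 774 CPM, and Csf1r, the receptor that microglia need to survive, from 126 to 2198 CPM. Their fold changes were 4.09 ± 0.076 (SE) for Cx3cr1, 4.11 ± 0.069 for P2ry12, 4.33 ± 0.066 for Tmem119 and 4.32 ± 0.069 for Csf1r, with adjusted p values of 3.84e-16, 1.39e-16, 5.39e-17 and 8.11e-17. All 13 genes of a microglial identity list were higher in TRAP, from 2.31 (Sparc, a matrix protein) to 4.41 (Olfml3, a secreted olfactomedin protein), with a median of 4.21. Each of the 4 markers was higher in 7 of 7 animals. The endogenous genes behind the reporter proteins, Rpl10a and Rangap1, were higher by 0.91 ± 0.064 and 0.71 ± 0.047. Whether reads of the reporter allele are counted under these 2 entries was not tested.

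**Figure D1:**
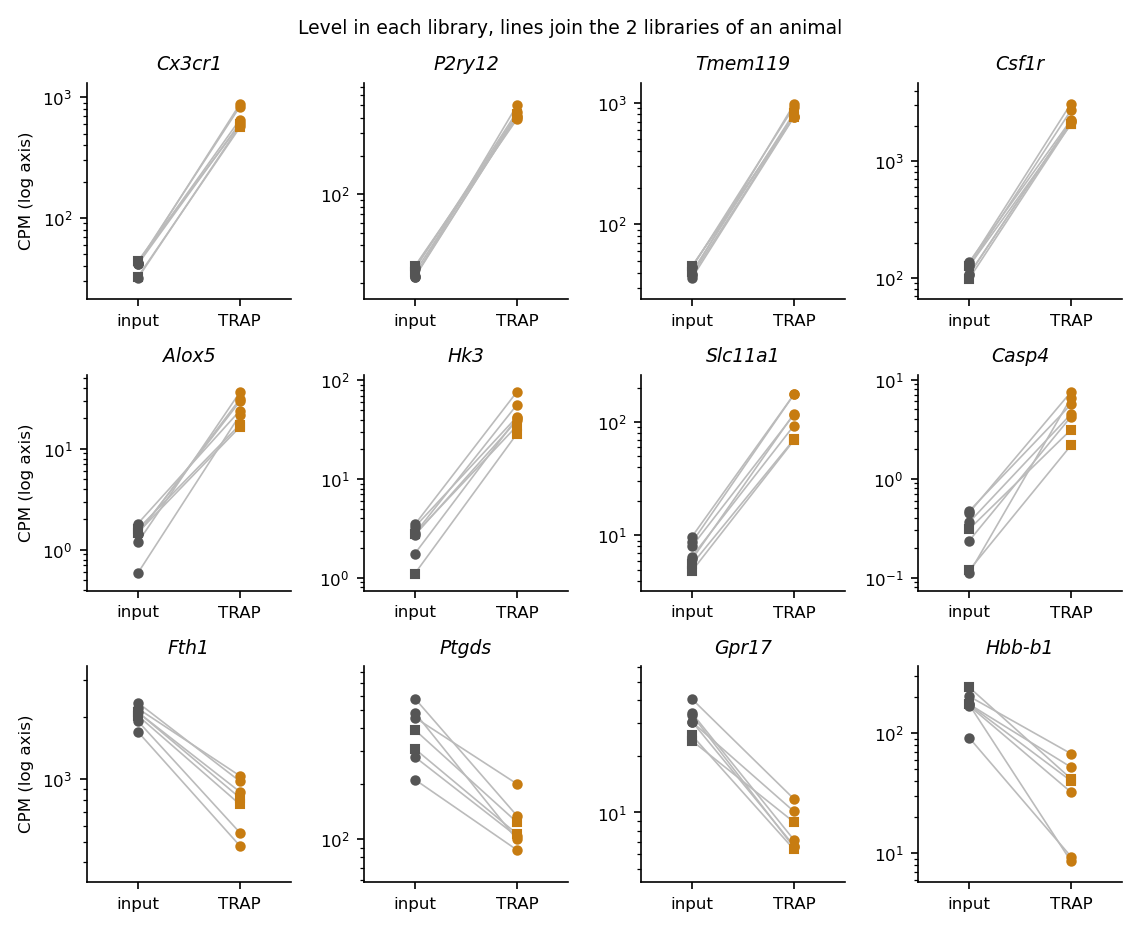
Level of 12 genes in each library (CPM, log axis), input in grey and TRAP in orange, with a line joining the 2 libraries of an animal; squares are the 2 males and circles the 5 females. The 4 markers of the label and 4 genes of other functions rise in every animal, and Fth1, Ptgds, Gpr17 and Hbb-b1 fall in every animal.

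Promoters of the enriched genes are shown next as a property of genes that moved together, which the choice of libraries did not use. PU.1, encoded by Sfpi1 in the file's nomenclature, is the master transcription factor of macrophages and binds purine-rich sites with a GGAA core. The letters GAGGAAGT, or their reverse complement ACTTCCTC, were searched in windows from 250 bases before to 50 bases after each RefSeq start (GRCm38.p6). Of 11527 tested genes with a window, 3.44% held the letters, as did 3.20% of all 32851 windows. The share was 11.5% (73 of 635) among genes higher in TRAP by log2 2 or more, with an exact Clopper-Pearson 95% interval of 9.12% to 14.2%, and 14.7% (22 of 150) among those higher by log2 4 or more. Between log2 1 and 2 it was 6.24%, among genes that were not called 2.97%, and among genes lower by log2 1 or more 2.74%. The windows of 5 genes are printed, with the letters in capitals, from the 15 genes that hold the letters, rose by log2 4 or more and averaged above a log2 CPM of 3; they were picked for their functions after the values were seen.
C1qc: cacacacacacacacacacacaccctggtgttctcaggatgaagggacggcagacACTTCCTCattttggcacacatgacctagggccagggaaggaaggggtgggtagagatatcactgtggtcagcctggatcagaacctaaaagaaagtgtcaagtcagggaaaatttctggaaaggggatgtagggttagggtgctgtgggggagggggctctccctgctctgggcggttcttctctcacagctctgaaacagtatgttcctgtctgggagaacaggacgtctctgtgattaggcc
Vav1: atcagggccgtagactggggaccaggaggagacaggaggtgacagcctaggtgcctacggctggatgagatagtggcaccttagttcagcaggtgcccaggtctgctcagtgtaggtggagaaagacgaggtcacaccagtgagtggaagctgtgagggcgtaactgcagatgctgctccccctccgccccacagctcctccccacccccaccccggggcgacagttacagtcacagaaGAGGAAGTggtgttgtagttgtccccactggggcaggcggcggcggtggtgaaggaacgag
Ctss: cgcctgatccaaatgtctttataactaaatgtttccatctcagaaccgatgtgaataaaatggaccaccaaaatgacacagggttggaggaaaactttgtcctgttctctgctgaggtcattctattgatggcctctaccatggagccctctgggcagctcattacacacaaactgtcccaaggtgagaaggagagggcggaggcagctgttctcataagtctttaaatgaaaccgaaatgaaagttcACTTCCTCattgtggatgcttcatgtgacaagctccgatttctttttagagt
Inpp5d: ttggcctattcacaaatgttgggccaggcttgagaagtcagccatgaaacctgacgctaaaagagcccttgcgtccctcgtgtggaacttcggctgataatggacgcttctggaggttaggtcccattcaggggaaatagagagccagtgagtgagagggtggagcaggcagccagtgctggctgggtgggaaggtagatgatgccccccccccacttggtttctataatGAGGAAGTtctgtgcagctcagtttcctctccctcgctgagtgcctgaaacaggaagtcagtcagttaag
Pycard: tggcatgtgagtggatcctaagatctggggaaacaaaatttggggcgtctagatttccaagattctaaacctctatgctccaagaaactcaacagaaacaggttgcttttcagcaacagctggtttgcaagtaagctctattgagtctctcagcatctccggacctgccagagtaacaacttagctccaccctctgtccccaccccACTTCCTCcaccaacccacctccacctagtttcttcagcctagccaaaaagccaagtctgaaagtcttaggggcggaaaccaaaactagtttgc
The windows lie at chr4:136892865-136893164 (minus strand) for C1qc, a chain of the complement starter C1q, and at chr17:57278850-57279149 (plus) for Vav1, a nucleotide exchange factor of leukocytes. Those of Ctss (chr3:95526536-95526835, plus), the protease cathepsin S, and Inpp5d (chr1:87620062-87620361, plus), the lipid phosphatase SHIP1, carry the letters within 20 bases of the start. Pycard (chr7:127993818-127994117, minus), the inflammasome adaptor ASC, has them 44 bases before it. The first capital lies 195 bases before the start in C1qc, 11 in Vav1, 2 in Ctss and 20 in Inpp5d. A match of letters describes the window and shows no binding.

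Across the genome the comparison was broad. Of 14596 genes tested, 9330 (63.9%) were called, 4650 higher (31.9%) and 4680 lower (32.1%) in TRAP. The changes were unequal in size: 1511 genes were higher by log2 1 or more (10.4%), against 426 lower by as much (2.92%). Increases reached far, with 328 called genes between log2 2 and 3, 284 between 3 and 4 and 197 at 4 or more, whereas 28 genes lay below -2. In 2810 genes (19.3%) every TRAP library was above every input, and in 1596 genes (10.9%) every TRAP library was below. The median over all genes was -0.02. Upper quartile scaling moved this median to -0.17 and scaling by library size alone moved it to -0.13, so directions of changes under about log2 0.2 are relative to the scaling. With these scalings 33.5% and 37.5% of the calls were higher, against 49.8%.

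Most counts of the pulldown came from genes that changed little. Genes higher by log2 1 or more held 3.25% ± 0.17 of the counts in input and 14.6% ± 2.67 in TRAP (SD, n = 7 each), from 11.7% to 18.5% among the 7 pulldowns. The 481 genes higher by log2 3 or more rose from 0.495% to 6.49% of the counts. Genes within log2 1 of no change still held 84.5% ± 2.70 of the counts in TRAP, compared with 94.1% ± 0.36 in input. The sets were chosen by the same contrast, so the shares are a description. The part of RNA from other cells in the pulldown was not tested.

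**Figure D2:**
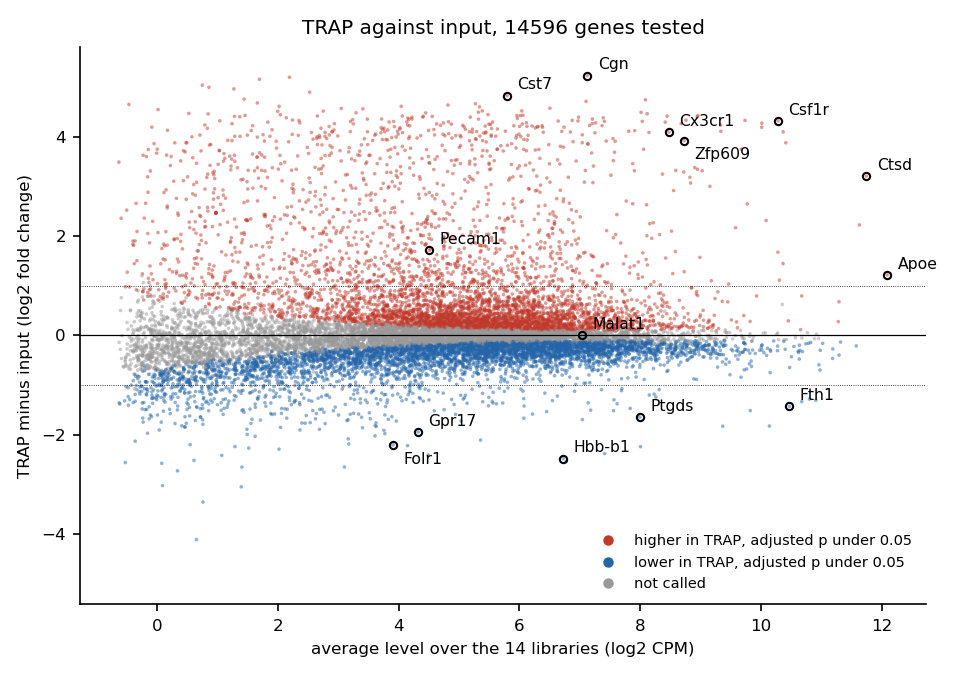
Log2 fold change of TRAP minus input against the average level over the 14 libraries (log2 CPM) for the genes tested; dotted lines mark log2 1 and -1. Increases above 3 are present at low and high levels, Cgn, Cst7, Csf1r and Ctsd among them, and decreases stay mostly above -2.

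The largest increases among abundant genes included Fcer1g, the shared gamma chain of Fc receptors (4.71), the Fc receptor Fcgr3 (4.49), the adaptor Pik3ap1 (4.60), Sfpi1 (4.57), the chemokine Ccl6 (4.66), the lysozyme Lyz1 (4.52) and Pdcd1, which encodes the inhibitory receptor PD-1 (4.56). Susd3 (4.63), Arl11 (4.61), BC035044 (4.56) and the crystallin gene Crybb1 (4.52) were also among them, together with Cst7 and the 2 cingulin genes. Many of these met that level through TRAP. Pdcd1 and BC035044 had input medians of only 0.492 and 0.881 CPM, so their ratios rest on few input counts. Lyz1 shares reads with its near copy Lyz2, and Fcgr3 with other Fc receptor genes, so the split within those families is uncertain.

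Cst7 (mm10 chromosome 2, 150570415 to 150578944), which encodes cystatin F, an inhibitor of lysosomal proteases, ran from 0.492 to 8.28 CPM (median 3.10) in the inputs and from 25.1 to 237 CPM (median 89.6) in TRAP. The groups did not overlap, yet the pulldowns differed among themselves, with animals 3 and 5 at 237 and 236 CPM and animals 1, 2 and 7 at 25.1, 26.7 and 30.6 (animals are numbered 1 to 7 only as names; 1 and 2 are the males). Its fold change was 4.82 ± 0.12 with an adjusted p of 7.44e-15.

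The single largest increase was not an immune gene. Cgn (mm10 chromosome 3, 94760070 to 94786515) encodes cingulin, a cytoplasmic plaque protein of tight junctions in epithelia and endothelia. It ran from 4.08 to 13.1 CPM (median 6.86) in the inputs and from 167 to 449.6 CPM (median 271) in TRAP, a fold change of 5.22 ± 0.08 (adjusted p 5.55e-17). The related Cgnl1 (mm10 chromosome 9, 71626509 to 71771602) ran from 4.63 to 41.1 CPM (median 13.7) and from 72.8 to 999 CPM (median 528), a fold change of 4.74 ± 0.12 (adjusted p 1.00e-14). Both genes come from a set chosen to be higher in TRAP in every animal, so that agreement is no result. The log2 ratio of Cgnl1 lay between 3.94 in animal 4 and 5.42 in animal 7.

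Cgnl1 levels varied between animals along with a choroid plexus gene. Input Cgnl1 was 4.85 and 4.63 CPM in animals 3 and 4, where Folr1, the folate receptor of choroid plexus epithelium, was 0.771 and 0.602 CPM. In animals 1, 2 and 6, input Cgnl1 was 31.4, 25.6 and 41.1 and Folr1 was 48.4, 40.02 and 41.8 CPM. Folr1 itself was lower in TRAP (-2.20), opposite to both cingulin genes. The part of choroid plexus tissue in the level of Cgnl1 was not tested.

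Ranked by level among genes higher by log2 3 or more, lysosomal and complement genes led the pulldown. Per kilobase of transcript, the TRAP level was 2922 CPM for Ctsd, the aspartic protease cathepsin D, 1893 and 1800.4 for C1qa and C1qb, 1843 for Ctss and 1351 for C1qc. Csf1r (505 CPM per kilobase), the lysosomal membrane protein gene Laptm5 (470.2), the integrin Itgb5 (464) and Mpeg1, a pore-forming protein of macrophages (282), followed. Ctsd ran from 539.8 to 789.6 CPM (median 612) in the inputs and from 4148 to 9691 CPM (median 5902) in TRAP, without overlap, a fold change of 3.20 ± 0.10.

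Cell identity lists beyond microglia separated into 3 kinds. All 10 border macrophage genes were higher, with a median of 3.80, among them Stab1, a scavenger receptor, from 15.7 to 35.8 CPM (median 23.7) in input and from 279.6 to 427 CPM (median 358) in TRAP, and F13a1, a coagulation factor chain, from 1.54 to 4.09 CPM (median 1.60) in input and from 23.5 to 55.9 CPM (median 34.1) in TRAP. Neither gene overlapped between groups. Ms4a7 and Cbr2 were higher by 4.00 and 3.83, and the lowest fold change on this list was 3.13. Their summed level rose from a median of 35.6 CPM to 536 CPM, compared with 906 to 10098 CPM for the microglial identity list. Stab1, with medians of 23.7 and 358 CPM, held most of the border macrophage sum, which therefore mainly follows that gene. The part of border macrophages in the pulldown was not tested.

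Endothelial genes also rose, at smaller size. Of 18 members, 15 were higher, 0 lower and 3 not called, with a median of 0.90. Pecam1, an adhesion protein of endothelium that some myeloid cells also carry, rose by 1.71 ± 0.10, Flt1, a VEGF receptor, by 1.60 ± 0.075, and Ly6c1 and Ly6a by 1.29 and 1.28. For Flt1 levels ran from 16.5 to 18.9 CPM (median 17.8) in the inputs and from 42.7 to 66.7 CPM (median 57.2) in TRAP. The 4 genes did not overlap between groups. Pericyte and smooth muscle genes did not follow, with 0 higher, 5 lower and 5 not called of 10 tested and a median of -0.41.

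Markers of most other brain cell types were lower in TRAP, to different degrees. Neuronal genes fell in 9 of 11 tested, with a median of -0.30, and astrocyte genes in 15 of 15, with a median of -0.54. Fibroblast and meningeal genes (11 lower of 12, median -1.01), oligodendrocyte precursor genes (12 of 12, median -1.34), and myelin genes (14 of 15, median -1.35) fell further. Choroid plexus genes (14 of 14, median -1.82) and erythroid genes (7 of 7, median -2.37) fell most.

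Markers of blood leukocytes were scarce and moved both ways. Only 6 of 21 lymphocyte genes passed the expression filter, 3 of them higher and 2 lower. Their summed level was 3.55 to 8.22 CPM in the inputs and 8.49 to 17.3 CPM in TRAP. Cd79b, a signalling chain of the B cell receptor, ran from 0.113 to 0.482 CPM (median 0.237) in input and from 3.98 to 5.21 CPM (median 4.23) in TRAP, and Igj, the joining chain of secreted antibodies, was lower (-1.90), though it did not pass the filter without animal 5. Of 14 neutrophil and monocyte genes 3 passed: the monocyte chemokine receptor Ccr2 rose by 2.05 ± 0.32 and Ly6c2 by 1.00 ± 0.29, and the neutrophil chemokine receptor Cxcr2 fell (-1.89 ± 0.13). A gene at such levels can pass the filter through TRAP alone, so the counts describe the genes that passed. The part of these cells in the other increases was not tested.

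Single members show the spread. Gja1, the main astrocyte gap junction gene, ran from 151 to 199 CPM (median 184) in the inputs and from 65.8 to 116 CPM (median 95.7) in TRAP. Gpr17, a receptor of differentiating oligodendrocyte precursors, ran from 24.2 to 40.3 CPM (median 30.6) in input and from 6.35 to 11.8 CPM (median 7.14) in TRAP. Neither of these 2 overlapped between groups, and the fold changes were -0.96 ± 0.067 and -1.94 ± 0.11. A single myelin-list gene went the other way: Trf, the iron carrier transferrin, ran from 582 to 856 CPM (median 711) in input and from 919 to 1711 CPM (median 1215) in TRAP, higher by 0.79 ± 0.059 (adjusted p 1.12e-08). Of 17 interneuron and neuropeptide genes 3 were higher, 5 lower and 9 not called, with a median of 0.02 (-0.13 with upper quartile scaling). The 3 higher ones were the neuropeptide genes Vip, Tac2 and Crh (1.24, 1.29 and 0.87). Pvalb, a calcium-binding protein gene of fast-spiking interneurons, the neuropeptide gene Tac1 and Slc32a1, the vesicular GABA transporter, were lower (-1.28, -0.76 and -0.41).

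**Figure D3:**
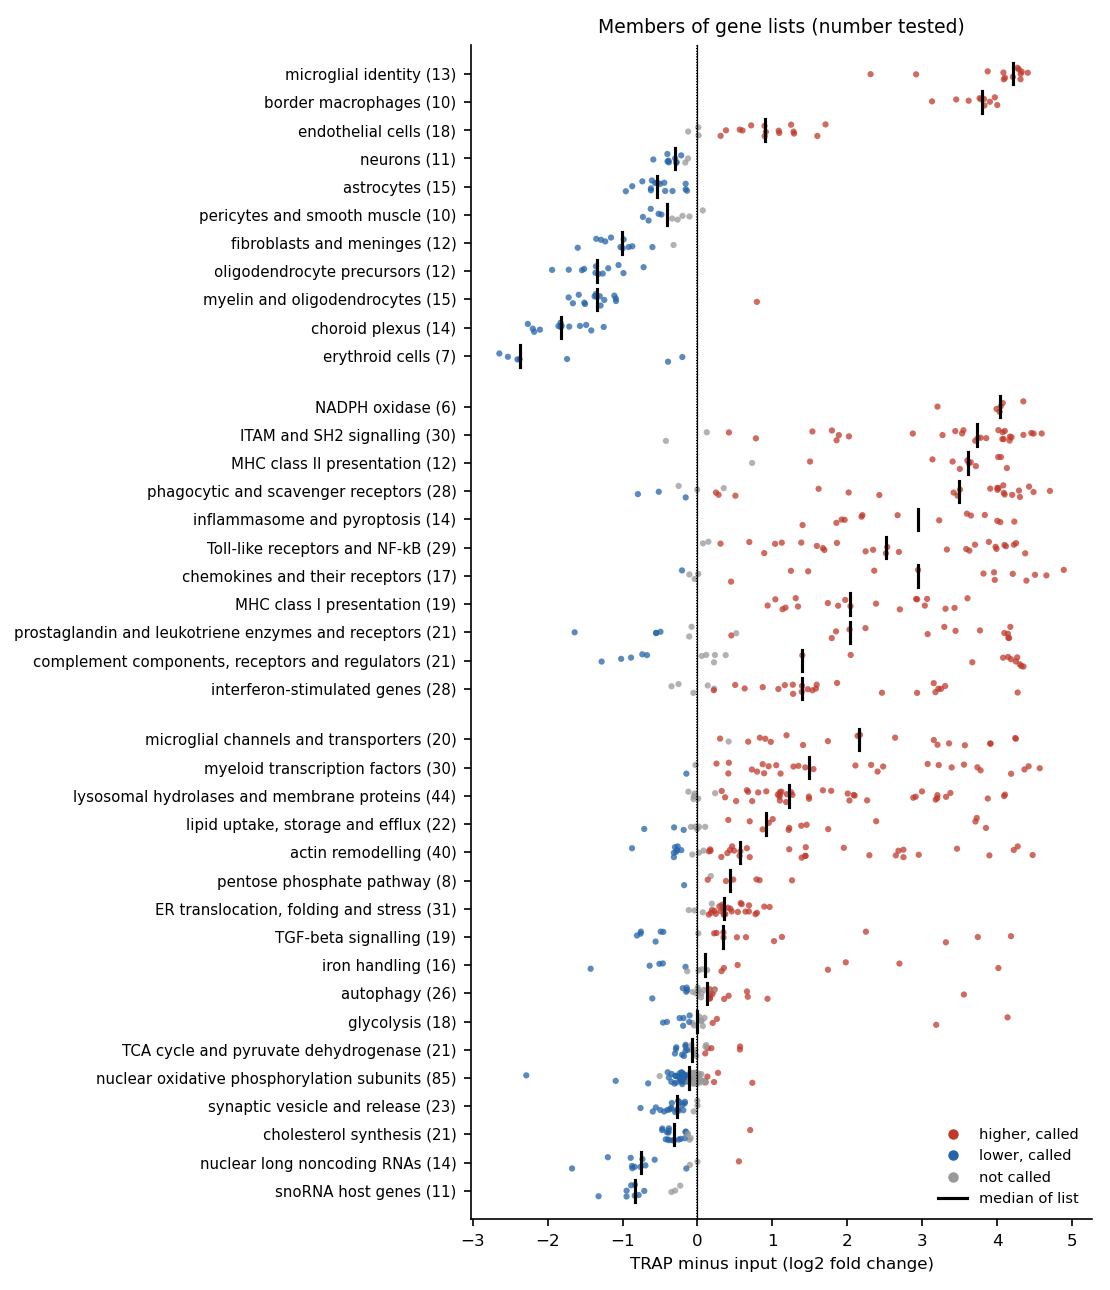
Log2 fold change of every tested member of the described gene lists (number tested in brackets), one point per gene, red where called higher, blue where called lower and grey where not called; black bars are list medians and the dotted line is the median of all genes. Immune lists lie far to the right, endothelial genes less far, the other non-myeloid cell types to the left, and metabolic lists near 0 with single genes far out.

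Among genes averaging above a log2 CPM of 3 and lower in 7 of 7 animals, the 15 largest decreases were mostly erythroid and choroid plexus genes. Over all genes tested the lowest fold change was -4.10, in a predicted gene outside this set. Alas2, the erythroid enzyme of heme synthesis, ran from 6.28 to 17.6 CPM (median 14.7) in the inputs and from 0.645 to 4.52 CPM (median 2.67) in TRAP, a fold change of -2.64 ± 0.20 (adjusted p 1.35e-08). Globin genes Beta-s, Hbb-b1, Hba-a2 and Hba-a1 had fold changes of -2.53, -2.47, -2.40 and -2.37, with the groups apart, although reads of such near-identical copies can be split between entries. Choroid plexus genes Folr1, Clic6, Col8a1, Col8a2, F5, Aqp1, Sostdc1 and 1500015O10Rik had fold changes from -1.83 to -2.21. Being lower in each of the 7 animals was a condition of this set and is no result. For all 8 the groups overlapped, and the inputs varied widely. Clic6, a chloride channel protein gene, ran from 3.49 to 123 CPM (median 67.8) in the inputs and from 1.21 to 26.6 CPM (median 18.9) in TRAP. Over the whole choroid plexus list the summed level ran from 234.8 to 5295 CPM among inputs. Gm20594, a predicted gene, ran from 393 to 463 CPM (median 413) in the inputs and from 40.7 to 148 CPM (median 104) in TRAP.

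Among receptors, those coupled to ITAM adaptors and their kinases rose nearly as a whole. Of 30 genes for ITAM and SH2 signalling, 28 were higher, 0 lower and 2 not called, with a median of 3.73. Tyrobp, the adaptor DAP12, ran from 16.8 to 32.04 CPM (median 24.2) in the inputs and from 383 to 723 CPM (median 531) in TRAP, a fold change of 4.46 ± 0.052 (adjusted p 2.18e-17). The kinase Btk, required for B cell development and also used by myeloid cells, rose by 4.35 ± 0.098 from a median of only 1.81 CPM. Phagocytic and scavenger receptors followed with 22 higher and 3 lower of 28 and a median of 3.49. Trem2, the lipid receptor that pairs with Tyrobp, rose by 4.31 ± 0.063 and Fcgr1 by 4.43 ± 0.12. The 3 that fell are engulfment receptors of other cells, Megf10 (-0.80), Tyro3 (-0.52) and Bai1 (-0.16); the direction of Bai1 is close to the shift between scalings.

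Toll-like receptor and NF-kB genes were higher in 27 of 29, with 0 lower and a median of 2.52. Ly86 and Cd180, partners in a receptor complex, rose by 4.38 ± 0.067 and 4.25 ± 0.081, Tlr13, a receptor for bacterial RNA, by 4.23 ± 0.12, and Unc93b1, the chaperone that carries nucleic acid receptors to endosomes, by 4.12 ± 0.066. Unc93b1 ran from 21.9 to 31.2 CPM (median 22.997) in the inputs and from 345 to 640.1 CPM (median 426) in TRAP, without overlap.

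Inflammasome and pyroptosis genes, which process interleukin-1 and open the membrane, were higher in all 14 of 14 tested, with a median of 2.95 and a lowest member of 1.40. Nlrp3, the sensor, ran from 0.473 to 2.40 CPM (median 1.58) in the inputs and from 12.5 to 31.5 CPM (median 20.6) in TRAP. Pycard ran from 2.17 to 4.11 CPM (median 2.98) in input and from 34.1 to 76.6 CPM (median 49.8) in TRAP. Casp4, a sensor of cytosolic lipopolysaccharide, was near the detection limit in input, at 0.110 to 0.468 CPM (median 0.307), and at 2.16 to 7.49 CPM (median 4.48) in TRAP. At that input level Casp4 can pass the expression filter through TRAP alone. The groups did not overlap for the 3 genes, and the fold changes were 3.84 ± 0.17, 4.04 ± 0.11 and 4.00 ± 0.25; Naip2, a sensor of bacterial secretion proteins, rose by 4.23 ± 0.14.

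All 6 measured subunits of the phagocyte NADPH oxidase, which makes superoxide, were higher, from 3.20 to 4.35 with a median of 4.04. Ncf1, the organizer subunit, ran from 11.3 to 16.8 CPM (median 14.1) in input and from 231 to 383 CPM (median 274) in TRAP, and Cyba, the membrane partner, from 10.7 to 19.6 CPM (median 14.6) in input and from 166 to 357 CPM (median 242) in TRAP. The groups did not overlap. Their fold changes were 4.35 ± 0.083 and 4.03 ± 0.08, and Ncf4 rose by 4.08 ± 0.12.

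Secreted signals rose unevenly. Chemokines and their receptors were higher in 13 of 17, with 1 lower and a median of 2.95. Ccl12, a ligand of Ccr2, rose by 4.89 ± 0.19, from 0.338 to 9.09 CPM in the medians. At that input level it can pass the expression filter through TRAP alone. Ccl4 and Ccl9 rose by 4.51 and 4.39. The list's lower member was Cx3cl1, the neuronal ligand of Cx3cr1, which ran from 541 to 689.6 CPM (median 589.8) in the inputs and from 429 to 626 CPM (median 511) in TRAP (-0.21), with overlapping groups. Near-identical Ccl genes can share reads.

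Cytokines, growth factors and their receptors gave 24 higher and 3 lower of 28 tested, with a median of 2.48. The interleukin-21 receptor Il21r rose by 4.19 ± 0.11, the shared beta chain Csf2rb by 4.06 ± 0.098 and the TNF receptor Tnfrsf1b by 3.94 ± 0.062. Il34, a ligand of Csf1r and a product of neurons, was lower (-0.29 ± 0.058), as were Il1rap (-0.51) and Vegfa (-0.26).

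TGF-beta signalling split by gene. Tgfb1, the ligand that microglia make and need, ran from 6.10 to 11.9 CPM (median 8.49) in the inputs and from 122 to 215 CPM (median 151) in TRAP. Its receptors Tgfbr1 and Tgfbr2 rose by 3.74 ± 0.077 and 3.32 ± 0.091, and Lrrc33 (Nrros), which presents latent TGF-beta1 on the microglial surface, by 2.25 ± 0.11. In contrast the ligand Tgfb3 (-0.81), the co-receptor Tgfbr3 (-0.76) and the matrix anchor Ltbp1 (-0.76) fell. In total 12 of 19 members rose and 6 fell (31.6%, near the 32.1% of all genes), with a median of 0.35.

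Of 17 nucleotide receptor and nucleotidase genes 8 were higher and 6 lower (35.3%, near the 32.1% of all genes). P2ry6, the UDP receptor linked to phagocytosis, ran from 3.70 to 7.44 CPM (median 4.56) in input and from 54.6 to 114 CPM (median 75.7) in TRAP. Adora3, an adenosine receptor, rose by 3.94 ± 0.16. Entpd1 (CD39), which degrades extracellular ATP to AMP, ran from 9.94 to 15.5 CPM (median 11.02) in input and from 139 to 202 CPM (median 165) in TRAP. Nt5e (CD73), which carries the next step from AMP to adenosine, ran the other way, from 2.60 to 4.55 CPM (median 3.07) in input and from 0.942 to 2.29 CPM (median 1.68) in TRAP. Neither of the 2 enzymes overlapped between groups; the fold change was 3.84 ± 0.06 for Entpd1 and -0.98 ± 0.19 for Nt5e, while Adora2b and Entpd2 were lower (-1.16 and -0.62). Slc29a3, a lysosomal nucleoside transporter, rose by 2.64 ± 0.071.

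Complement genes were higher in 11 (52.4%) and lower in 5 (23.8%) of 21, against 31.9% and 32.1% of all genes, with a median of 1.40. C1qc, whose promoter letters are printed above, ran from 60.98 to 105 CPM (median 80.4) in the inputs and from 1199 to 2189 CPM (median 1561) in TRAP, and rose by 4.32 ± 0.052. The receptors C5ar1 and Itgb2 rose by 4.35 ± 0.14 and 4.30 ± 0.063. C1s, a protease of the same C1 complex, was lower (-1.28), and the inhibitors Cd59a and Serping1 were lower (-1.02 and -0.89), each with overlapping groups.

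Antigen presentation rose for both classes. All 19 class I genes were higher, 18 of them by log2 1 or more, with a median of 2.04; the immunoproteasome subunits Psmb8 and Psmb9 rose by 3.61 ± 0.093 and 3.43 ± 0.13 and B2m, the light chain, by 3.31 ± 0.07. Of 12 class II genes 11 were higher and 0 lower, with a median of 3.61, including the peptide-exchange genes H2-Oa (4.13), H2-Ob (4.05) and H2-DMb1 (3.72) and the costimulator Cd86 (4.02). H2 genes share reads with near copies, so single members are uncertain. The summed class II level varied among pulldowns, from 290.0 to 1849 CPM with a median of 389, and that of class I from 1778 to 5748 with a median of 2477. Animal 3 had the highest value in both. Interferon-stimulated genes were higher in 23 of 28, with 0 lower and a median of 1.40, led by Ifi204 (4.28).

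Enzymes of lipid mediators moved in both directions. Prostaglandin and leukotriene genes were higher in 14 and lower in 4 of 21 tested. Alox5, which starts leukotriene synthesis, ran from 0.587 to 1.81 CPM (median 1.44) in the inputs and from 16.4 to 36.2 CPM (median 23.8) in TRAP, and its activating protein gene Alox5ap from 3.40 to 6.21 CPM (median 4.90) in input and from 79.7 to 101 CPM (median 85.1) in TRAP. Tbxas1, the thromboxane synthase, and Hpgd, which inactivates prostaglandins, rose by 4.14 ± 0.14 and 4.15 ± 0.068. The fold changes of Alox5 and Alox5ap were 4.18 ± 0.17 and 4.16 ± 0.081, with no overlap of groups. Ptgds, the lipocalin-type prostaglandin D synthase of meninges, choroid plexus and glia, ran from 210.4 to 578 CPM (median 391) in input and from 87.5 to 199 CPM (median 107) in TRAP (-1.64). Ptgs2, the inducible cyclooxygenase, which forebrain neurons express, was lower (-0.55), as was Pla2g7 (-0.55).

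Lysosomal genes rose widely but with a long range. Of 44 hydrolases and membrane proteins 38 were higher, 0 lower and 6 not called, from -0.12 to 4.11 with a median of 1.22. Laptm5, Ctss, Ctsh and Ctsz, the first a lysosomal membrane protein gene and the others cathepsins, rose by 4.11 ± 0.057, 4.09 ± 0.057, 3.88 ± 0.091 and 3.38 ± 0.10. Ctss ran from 112 to 177 CPM (median 144) in the inputs and from 1927 to 3461 CPM (median 2170.2) in TRAP. The vacuolar ATPase, which acidifies lysosomes in all cells, was lower in 9 and higher in 7 of 22 subunit genes with a median of -0.11. Those shares, 40.9% and 31.8%, are not far from the 32.1% and 31.9% of all genes. A single subunit stood far out, Atp6v0d2, known from osteoclasts and macrophages, with a fold change of 3.87 ± 0.34. It ran from 0 to 0.606 CPM (median 0.117) in the inputs and from 0.694 to 5.04 CPM (median 2.11) in TRAP. At such input levels a gene can pass the expression filter through TRAP alone, so its direction is no test.

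Lipid handling gave 14 higher and 3 lower of 22, with a median of 0.91. Lpcat2, which makes platelet-activating factor and membrane lipids, ran from 15.8 to 21.3 CPM (median 17.5) in input and from 201 to 361 CPM (median 245) in TRAP; the transporter Abca9 rose by 3.73 ± 0.075 and Ch25h, which makes 25-hydroxycholesterol, by 2.39 ± 0.23. Apoc2 rose by 3.71 ± 0.44 from inputs at 0 to 0.602 CPM (median 0.184), a level at which it can pass the expression filter through TRAP alone. The lipid droplet coat gene Plin3 was lower (-0.71). Cholesterol synthesis moved the other way, with 16 lower and 1 higher of 21 and a median of -0.31 (-0.45 with upper quartile scaling). Cyp51, a sterol demethylase, was lower (-0.47), while Ebp, a sterol isomerase, rose by 0.70 ± 0.065.

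Of 16 iron genes 7 were higher and 5 lower, not far from the 31.9% and 32.1% of all genes; the list median was 0.10, and -0.05 with upper quartile scaling. Slc11a1, the phagosomal metal transporter NRAMP1, ran from 4.86 to 9.75 CPM (median 6.51) in the inputs and from 69.2 to 176 CPM (median 116) in TRAP. The exporter ferroportin, Slc40a1, rose by 1.98 ± 0.088, the regulator Hfe by 2.70 ± 0.12 and heme oxygenase Hmox1 by 1.74 ± 0.12. Fth1, the ferritin heavy chain for iron storage, ran from 1696 to 2339 CPM (median 2105) in input and from 479.9 to 1041 CPM (median 817) in TRAP, in the opposite direction (-1.43 ± 0.078, adjusted p 2.65e-10). No library overlapped for Fth1, and the iron-uptake receptor Tfrc (-0.51) and the oxidase Heph (-0.64) were also lower.

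Of 20 antioxidant genes 11 were higher and 7 lower (the latter near the 32.1% of all genes), with a median of 0.14 that became -0.01 with upper quartile scaling. Sepp1 (Selenop), the plasma selenium carrier, ran from 214 to 266 CPM (median 242) in input and from 1283 to 1815 CPM (median 1449.9) in TRAP, higher by 2.65 ± 0.055. The peroxidase Gpx1 rose by 1.82 ± 0.094. Sepw1 (Selenow), another selenoprotein, was lower (-0.88 ± 0.047), as was the quinone reductase Nqo1 (-1.24).

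Central metabolism as a whole stayed near the median of all genes, with single isoforms far from it. Glycolysis genes were higher in 4 (22.2%) and lower in 7 (38.9%) of 18, against 31.9% and 32.1% of all genes. Their median was -0.01, and 0.01 without a filter on low counts. Hk3, a hexokinase of myeloid cells, ran from 1.11 to 3.47 CPM (median 2.78) in the inputs and from 28.7 to 76.2 CPM (median 41.3) in TRAP, and Hk2 from 8.85 to 13.8 CPM (median 12.2) in input and from 86.4 to 162 CPM (median 99.2) in TRAP; they rose by 4.14 ± 0.12 and 3.19 ± 0.073. The fructose transporter Slc2a5 rose by 4.21 ± 0.066, against -0.46 ± 0.049 for the neuronal glucose transporter Slc2a3, and Aldoc, the astrocytic aldolase, was lower (-0.41).

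Pentose phosphate genes, which make NADPH, were higher in 6 of 8, among them Pgd (1.26 ± 0.076) and G6pdx (0.79 ± 0.052), with a list median of 0.43. The citric acid cycle had 5 higher (23.8%) and 9 lower (42.9%) of 21. Nuclear genes of oxidative phosphorylation had 5 higher (5.88%) and 40 lower (47.1%) of 85 with a median of -0.11. Idh2 and Suclg2 were the largest increases of the cycle (0.57 and 0.57). Autophagy genes had 12 higher and 5 lower of 26, with a median of 0.12 that turned to -0.02 with upper quartile scaling; Wdfy4, a protein of antigen cross-presentation, stood apart at 3.56 ± 0.13.

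On a list of transporters and channels known from microglia, 19 of 20 genes were higher and 0 lower, with a median of 2.15. The list was made of such genes, so its direction is no test. Among all tested solute carriers, 77 were higher (28.1%) and 118 lower (43.1%) of 274, with a median of -0.14. Of 78 potassium channel genes 8 were higher and 47 lower, with a median of -0.25. Over all genes, 31.9% were higher and 32.1% lower. The potassium channel Kcnk6 ran from 4.98 to 9.42 CPM (median 6.45) in input and from 101 to 188 CPM (median 118) in TRAP, and the lysosomal peptide transporter Slc15a3 rose by 4.24 ± 0.095. The organic anion transporters Abcc3 and Slco2b1 rose by 3.91 ± 0.11 and 3.91 ± 0.06.

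Many regulators of the actin skeleton rose. Actin remodelling genes were higher in 29 and lower in 8 of 40, with a median of 0.57. Was, the blood cell activator of branched actin, ran from 1.30 to 2.31 CPM (median 1.87) in the inputs and from 29.4 to 58.8 CPM (median 42.98) in TRAP, and the integrin activator Fermt3 from 5.03 to 8.84 CPM (median 6.73) in input and from 92.7 to 192 CPM (median 121) in TRAP. Gsn, the actin-severing gelsolin that oligodendrocytes express, was lower (-0.87 ± 0.072).

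To set such forms beside their broadly expressed or neural counterparts, 29 pairs of related genes were measured (most of them paralogs, some partners of a pathway). The labels leukocyte member and counterpart are those of the list of pairs. They do not hold for every gene, such as the widely expressed enzymes Aldoa, Eno1 and Pfkl, or Skap1, the counterpart of Fyb. The listed leukocyte member was called higher in 27 pairs and not called in 2 (Aldoa and Eno1), with a median of 3.44. The counterpart was higher in 8, lower in 16 and not called in 5, with a median of -0.19. In all 29 pairs the leukocyte member had the higher ratio in 7 of 7 animals, and in 25 pairs by more than log2 1 on average. The pairs were listed with known leukocyte expression in mind and with earlier results of these data known, so the direction itself is no test. Fermt3 and Fermt2 had fold changes of 4.28 and -0.56, Was and Wasl 4.47 and -0.31, Hk2 and Hk1 3.19 and -0.19, and the phosphatases Ptpn6 and Ptpn11 4.19 and -0.01. Some counterparts rose too: Vav2 rose by 2.17 ± 0.072 beside Vav1 at 4.17 ± 0.075, Mapkapk2 by 1.39 beside Mapkapk3 at 1.97, Ctsf by 1.10 and Inppl1 by 1.03. For the glycolytic pairs Aldoa and Aldoc, Eno1 and Eno2, and Pfkl and Pfkm, the difference within the pair averaged under log2 0.5.

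**Figure D4:**
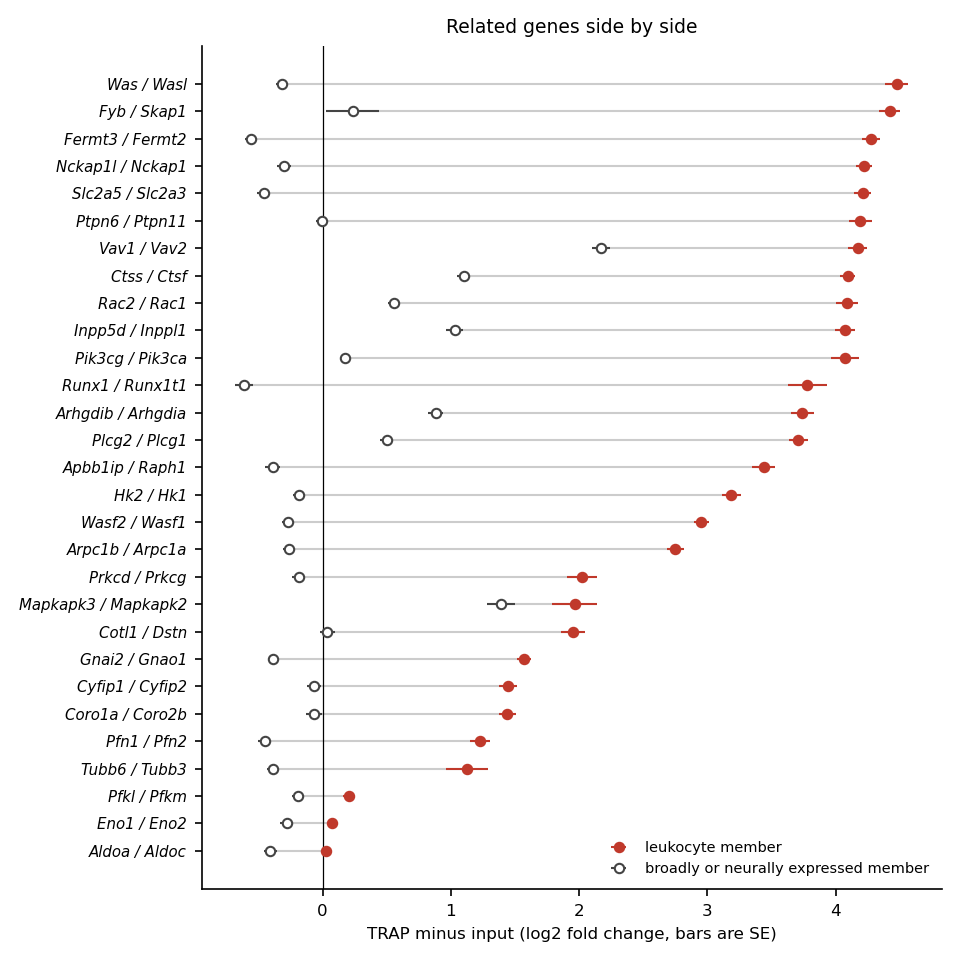
Log2 fold change (TRAP minus input, bars are SE) in 29 pairs of related genes. Filled red points are the members listed as leukocyte, and open points their listed broadly expressed or neural counterparts. Pairs are sorted by the red point. The red point lies to the right in every pair, with mean distances from 4.80 for Fermt3 and Fermt2 to 0.353 for Eno1 and Eno2.

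Myeloid transcription factor genes were higher in 28 of 30, with 1 lower and a median of 1.49. Sfpi1 ran from 4.93 to 9.18 CPM (median 7.27) in the inputs and from 131 to 239.5 CPM (median 164) in TRAP. The interferon regulatory factors Irf5 and Irf8 rose by 4.42 ± 0.064 and 4.19 ± 0.089, and Ikzf1, a lymphoid and myeloid zinc finger factor, by 4.37 ± 0.077. Some widely expressed regulators also rose. They were chosen, after the values were seen, from 24 genes higher by log2 3 or more with a mean input of at least 40 CPM. Zfp609 ran from 40.9 to 65.2 CPM (median 53.8) in input and from 565 to 1146 CPM (median 768) in TRAP, Rai1 from 68.03 to 102 CPM (median 86.9) in input and from 594 to 1679 CPM (median 685) in TRAP, and the osmotic stress factor Nfat5 from 69.9 to 92.1 CPM (median 78.6) in input and from 647 to 985 CPM (median 785) in TRAP. The groups did not overlap for these 3, with fold changes of 3.92 ± 0.072, 3.34 ± 0.12 and 3.29 ± 0.067, and Sec16a, which organizes exit sites of the endoplasmic reticulum, rose by 3.25 ± 0.068.

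Proliferation genes were higher in 8 of 12, with 0 lower and a median of 0.78, at low levels. Mcm3, a subunit of the replicative helicase, ran from 2.25 to 4.90 CPM (median 3.01) in input and from 20.7 to 45.5 CPM (median 25.9) in TRAP, and Top2a from 0.235 to 1.76 CPM (median 0.769) in input and from 1.79 to 10.3 CPM (median 3.09) in TRAP. Immediate early genes, which respond to stimulation and to handling of tissue, had 4 higher (20%) and 9 lower (45%) of 20. Over all genes the shares were 31.9% and 32.1%. The list median of -0.13 is within the shift between scalings, so no direction is given for the list. The stress factor Atf3 rose by 2.30 ± 0.13 and Btg2 by 1.08 ± 0.083, whereas Egr4, a neuronal member, was lower (-0.48 ± 0.064).

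Genes of the protein machinery moved little. Endoplasmic reticulum translocation, folding and stress genes were higher in 27 of 31 and lower in 0, yet none reached log2 1; the median was 0.35, and 0.21 with upper quartile scaling. Ssr4, a translocon subunit, rose by 0.96 ± 0.089 and the folding enzymes P4hb and Pdia3 by 0.79 ± 0.062 and 0.77 ± 0.08. Cytosolic ribosomal protein genes had 36 higher and 12 lower of 81, but 19 higher and 33 lower with upper quartile scaling, so no direction is given for them. Of 51 translation initiation factor genes 25 were higher and 4 lower, against 11 and 13 with that scaling. The inhibitor of cap-dependent initiation Eif4ebp1 ran from 2.01 to 3.92 CPM (median 2.70) in input and from 11.5 to 19.6 CPM (median 16.5) in TRAP, higher by 2.48 ± 0.14.

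RNAs that are not translated were lower more often. Of 554 tested genes typed as miscellaneous RNA in the deposited table, 9.57% were higher and 43.5% lower, with a median of -0.38, compared with 32.9% and 31.7% of 13948 protein-coding genes (median -0.01). Nuclear long noncoding RNAs were lower in 11 and higher in 1 of 14, with a median of -0.75. Rian, an imprinted nuclear RNA of neurons, ran from 374 to 422 CPM (median 394) in the inputs and from 129.8 to 227 CPM (median 159) in TRAP, and Miat from 487 to 742 CPM (median 615) in input and from 264 to 429 CPM (median 337) in TRAP; their fold changes were -1.20 ± 0.071 and -0.87 ± 0.065. Malat1, an abundant nuclear RNA, did not follow, at 92.3 to 191 CPM (median 121) in input and 80.2 to 219.6 CPM (median 111) in TRAP with a fold change of 0.00 ± 0.15. Host genes of small nucleolar RNAs, whose spliced transcripts are poorly translated, were lower in 8 and higher in 0 of 11, with a median of -0.83 and Snhg4 (-1.32) and Snhg5 (-0.95) as examples. These RNAs also differ between cell types, and a part of cell type in their decrease was not tested. Strand handling of the counting is not given in the sources used here, so antisense and overlapping genes cannot be told apart.

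Synaptic genes fell together but slightly. Synaptic vesicle and release genes were lower in 19 of 23 with 0 higher (median -0.27), and postsynaptic and dendritic genes in 15 of 21 with 0 higher (median -0.21). Ddn, a dendritic mRNA, ran from 2259 to 2759 CPM (median 2338) in input and from 1403 to 1842 CPM (median 1572) in TRAP (-0.59 ± 0.046). Among kinesins, Kif5a, a neuronal motor of axonal transport, had the lowest fold change (-1.28 ± 0.058).

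By the gene ontology terms of the deposited table, chosen after the files were seen, 18 of 18 genes of antigen processing and presentation were higher (median 2.99). Of 122 genes of the innate immune response 86 were higher (70.5%) and 17 lower (13.9%), with a median of 1.16. Of 51 chemotaxis genes 33 were higher (64.7%) and 15 lower (29.4%), with a median of 1.60. Over all genes 31.9% were higher and 32.1% lower, so the lower share of chemotaxis genes was near that of all genes. The lysosome term had 131 higher and 35 lower of 212. The synapse term leaned lower, with 185 lower (58.0%) and 55 higher (17.2%) of 319 and a median of -0.20. The extracellular region had 348 lower (43.1%) and 222 higher (27.5%) of 808, with a median of -0.19. By log2 1 or more, 16.6% of the extracellular region genes were higher and 9.16% lower, against 10.4% and 2.92% of all genes. Both medians are about the size of the shift between scalings. RNA splicing genes had 103 higher and 21 lower of 192, and 60 and 45 with upper quartile scaling.

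Single genes moved apart from most of their family or list. Of 39 collagen genes 7 were higher and 14 lower (35.9%, near the 32.1% of all genes); Col27a1 and Col15a1 rose by 2.30 ± 0.091 and 2.17 ± 0.096, while Col8a1 and Col8a2, named above, fell. Of 23 voltage-gated calcium channel genes 18 were lower and 1 higher, the skeletal muscle channel gene Cacna1s at 2.71 ± 0.22. Glutamate receptor genes were lower in 20 of 26, and Grin2b, an NMDA receptor subunit, was the 1 called higher, by 0.51 ± 0.10 with overlapping groups. Genes of the dentate gyrus and CA fields were lower in 11 and higher in 3 of 17, with a median of -0.46. Among the 3, Dsp, the desmosomal gene that marks dentate granule cells, rose by 1.36 ± 0.091, from a median of 35.3 to 87.9 CPM.

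Pulldowns of different animals differed several-fold in genes known from activated microglia. Clec7a, a receptor for fungal glucans, was 35.3 and 21.5 CPM in the male pulldowns and from 41.7 to 182 CPM in the female ones, and Itgax, the integrin CD11c, was 21.99 and 18.2 against 42.9 to 207 CPM. Males were also lower in the inputs, with Clec7a at 1.42 and 1.78 CPM in males and 2.82 to 8.84 in females. Their ratios of TRAP to input therefore varied less, from 3.51 to 4.55 for Clec7a. P2ry12 in TRAP stayed between 388 and 498 CPM. The summed microglial identity list was also highest in animals 3 and 5, reaching 13885 and 13361 CPM, while the remaining pulldowns had 9585 to 10549 CPM; its part in the other values was not tested. A sex difference in these levels was not tested. In comparisons between animals, fewer cells of a type and less RNA per cell cannot be told apart in bulk libraries.

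Asked directly, the TRAP to input ratio differed between the sexes in 3 genes (0.0206% of 14596), and 1930 genes had an unadjusted p under 0.05. C3, the central complement component, had log2 ratios of 0.98 and 1.06 in males and 2.13 to 2.66 in females, a difference of -1.29 ± 0.20 (male minus female, SE). Cotl1, an actin-binding protein gene, averaged 1.48 in males and 2.14 in females, a difference of -0.65 ± 0.10. B430010I23Rik averaged 1.96 in males and -2.62 in females, a difference of 5.69 ± 0.85 at only 0 to 45 counts in the pulldowns. The adjusted p was 0.0305 for each of the 3. Leaving out animal 1, 2 or 4 left none of these 3 calls, and the count of calls ran from 0 to 95 when single animals were left out, so they rest on few animals.

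An independent readout came from the early-induced inputs, where 1735 of 14547 genes (11.9%) were higher and 1989 (13.7%) lower in the 12 old than in the 10 young animals by edgeR's quasi-likelihood test. Genes enriched in TRAP were higher with age more often than the background. Of 144 genes at log2 4 or more in TRAP that were tested for age, 68.8% were higher in old and 0 lower, with a median age difference of 0.53. The share was 39.2% between log2 3 and 4 (199 genes), 25.1% between 2 and 3 (271), and 17.5% between 1 and 2 (675). It was 10.5% between 0 and 1 (5419) and 9.99% between -1 and 0 (7177), near the background, with a median of -0.015 between -1 and 0. Among 421 genes below log2 -1 in TRAP, 20.4% were higher and 4.28% lower in old (median 0.06).

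**Figure D5:**
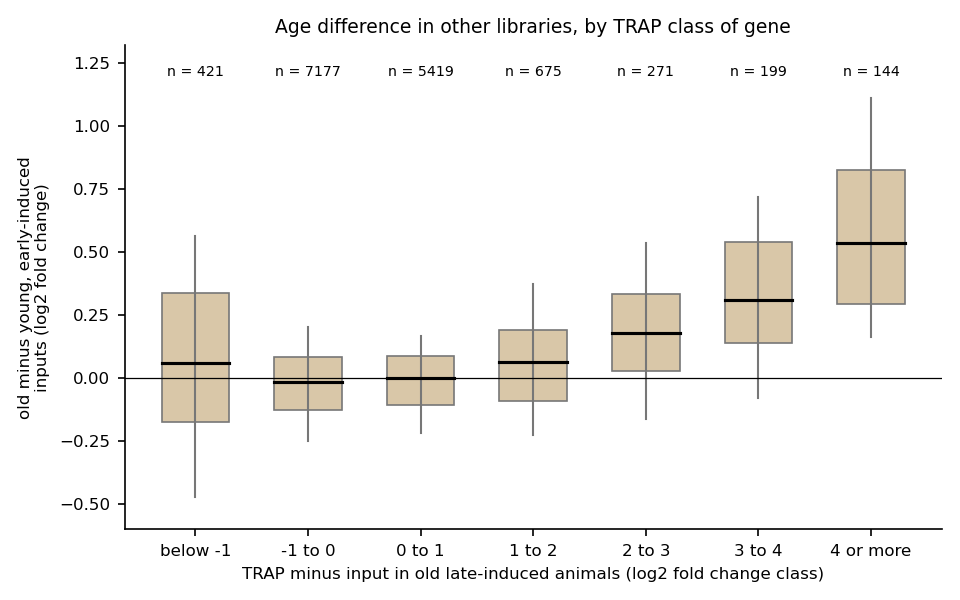
Age difference (old minus young, log2) in early-induced inputs for genes grouped by their TRAP fold change in the old late-induced animals; bars in the boxes are medians, boxes the quartiles and whiskers the 10th to 90th percentiles. The median climbs from near 0 below log2 1 to 0.53 at log2 4 or more.

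As shares of each list, 363 genes were both higher in TRAP by log2 1 or more and higher in old, which is 28.2% of the 1288 TRAP genes and 20.9% of the 1734 age genes. Of the 64 genes higher in old by log2 1 or more, 36 (56.3%) were higher in TRAP by as much and 7 (10.9%) lower. The named examples at the top were Cst7, with an age difference of 3.69 ± 0.41, Ccl6 (1.09 ± 0.18), Arl11 (1.22 ± 0.36), Fcer1g (0.83 ± 0.11) and Susd3 (0.41 ± 0.14). Cst7 averaged 0.112 CPM in young and 1.63 CPM in old early-induced inputs.

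Age differences in the other direction were few among enriched genes. Only 4 genes enriched by log2 3 or more were lower in old: Zfp609 (-0.22 ± 0.065), Rai1 (-0.29 ± 0.072), Nfat5 (-0.22 ± 0.053) and Sec16a (-0.22 ± 0.053). Of the 24 genes enriched by as much with a mean input of at least 40 CPM, 19 were higher in old and these 4 lower. The same 4 were described above by choice after their values were seen, so that match is no result. Among genes depleted in TRAP, Klk6, a serine protease of mature oligodendrocytes, was higher in old by 2.17 ± 0.23 and lower in TRAP (-1.77), while Gpr17 was lower in old (-0.83 ± 0.068) and lower in TRAP. Acan, the core protein of perineuronal nets, was also lower in both (-0.37 with age and -1.58 in TRAP).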

How the data were processed

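The deposited table holds 36172 gene entries and 36 columns of estimated counts that the authors made from their reads; 77.2% of the values above 0 are not whole numbers. The submitters' processing notes name mm10 and DESeq2; the aligner and counter are not given in the sources used here. Counts were rounded and fitted with edgeR 4.0.16 (R 4.3.3) by quasi-likelihood, with the default expression filter at a minimum count of 10, TMM scaling and the animal as a block. The animal number in each library name pairs the libraries: the deviations of an animal's 2 libraries correlated at 0.308 to 0.470, in each animal above those with any other animal. A sex difference was the interaction of fraction and sex, and age in the early-induced inputs was fitted with sex as a covariate. On data simulated from the same means, 200 of 14596 genes were changed by log2 0.5 or 1 in either direction and the others not at all. Of these, 93.3% of genes changed by log2 1 and 69.8% of those changed by 0.5 were called for TRAP against input, with 6.29% false calls. The broad and unequal changes of the real comparison were not simulated, so these rates do not cover the shift between scalings. Alternatives used DESeq2 1.42.0 and limma 3.58.1.

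The members and lists were chosen with earlier results of these data known. Named genes are the 15 largest increases and decreases averaging above a log2 CPM of 3 and moving alike in 7 of 7 animals, the 10 highest levels in TRAP among genes higher by log2 3 or more, and up to 4 largest and 3 opposite members of each list. Up to 5 calls per direction were named for sex and age. Of 1015 genes on the lists, 31 were matched by identifier and 30 were not matched, 26 of them mitochondrially encoded. Use of molecular identifiers is not given in the sources used here, and the interval on promoter shares covers counting error over genes only; SEs and SDs include the spread between animals. Results of some genes are not reported here.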

Additional observations from a re-analysis of the deposited data

Results flagged for a closer look

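Single animals stood apart from the other 6 in the log2 ratio of TRAP to input for 11 of 219 named genes, a gap that chance gives in about 1 of 20 groups. Ratios above the rest were those of Casp4 (4.84 in animal 3; next 3.73), Psmb9 (4.16 in animal 3), Col8a2 (-0.92 in animal 3), Pdcd1 (6.23 in animal 4), Slc15a3 (4.90 in animal 4), Ms4a7 (5.41 in animal 6), Dsp (2.02 in animal 7) and Entpd1 (4.15 in animal 7). Ratios below the rest were those of Btk (3.79 in animal 2), Lyz1 (3.63 in animal 2) and Tgfbr3 (-1.18 in animal 6). The summed level of the citric acid cycle list was lowest in animal 7, at -0.15 with the next animal at -0.08.

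The ratio differed between the sexes, by the interaction term of edgeR's quasi-likelihood test, in B430010I23Rik (5.69, male minus female), C3 (-1.29) and Cotl1 (-0.65). For C3 and Cotl1, the ratios of the 2 males were below those of the 5 females.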

How the results depend on the processing

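A test against an absolute log2 fold change of 1 left 1225 genes higher and 155 lower. A minimum count of 50 left 228 genes lower by log2 1 or more, on fewer genes tested. Without the replicate block, with sex as a covariate, 4442 genes were higher and 4198 lower, and Bai1 and Vegfa were no longer called. Leaving out single animals gave 4227 to 4645 genes higher, 4297 to 4562 lower, 1438 to 1563 higher by log2 1 or more and 386 to 472 lower by as much. The sex difference gave 0 to 95 genes when single animals were left out and 6 with limma voom; the cause was not tested. With upper quartile scaling the list medians changed sign for autophagy (-0.020), iron handling (-0.050; -0.011 with library size alone) and antioxidant genes (-0.0059), and Aldoa was called lower at -0.12. The interneuron and neuropeptide median was -0.13 with upper quartile scaling, -0.088 with library size alone and -0.16 in females only, and ran from -0.091 to 0.053 when single animals were left out, below 0 without animal 1, 2, 4 or 7. The glycolysis median was 0.014 with no filter and ran from -0.044 to 0.0074 when single animals were left out, at 0.0071 without animal 4 and 0.0074 without animal 7. Every other called gene named kept its direction under the alternatives run, while Malat1, Eno1 and Ptpn11, not called, changed sign under some. Depth limits genes near 1 CPM, such as Casp4 in input, whose ratios rest on few counts.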
